A study of Mus musculus with 58 samples.

Results

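The 36 genes described here encode plasma proteins of blood coagulation, fibrinolysis and the complement system. They were taken by symbol from the deposited kidney table, and the liver entries with the same RefSeq transcripts were added, which gave 46 transcripts that were summed to 36 of the 24122 genes in the tables. RNA was sequenced from liver and kidney of male B6C3F1/J mice, obtained at 5 to 6 weeks of age and acclimatized for a week, after 1 gavage with either of the solvents trichloroethylene (TCE) and tetrachloroethylene (PCE), or with vehicle alone. B6C3F1/J is a first-generation hybrid of C57BL/6 and C3H strains, and another label names C57BL/6 as the strain. Doses of 24, 80, 240 and 800 mg/kg of TCE correspond, per the labels, to about 0.22, 0.67, 2 and 6 mmol/kg. The same molar doses of PCE were 30, 100, 300 and 1000 mg/kg. Each chemical had its own vehicle group in each tissue, which received saline with 5% of the surfactant Alkamuls EL-620 at 5 mL/kg. The 58 libraries form 20 groups of 3, except liver PCE 0.67 mmol/kg and kidney PCE vehicle, which have 2 each. The labels do not say whether replicates were separate animals, nor whether liver and kidney came from the same mice, so the p-values reflect only the spread among these samples, which may be technical. The time from dose to sampling is not given in the sources used here.

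Coagulation is a chain of proteases that ends with thrombin cutting fibrinogen into fibrin. Fibrinogen is built from the Fga, Fgb and Fgg chains. Plasmin dissolves the clot, and inhibitors such as antithrombin (Serpinc1) and alpha-2-antiplasmin (Serpinf2) hold the proteases in check. Complement is a second plasma cascade, in which the classical, lectin and alternative routes cleave C3, and C5 (encoded by Hc in the mouse), C6, C8 and C9 then assemble a pore in target membranes. Hepatocytes secrete most of these proteins. Fibrinogen, C3 and factor B (Cfb) are also acute-phase proteins, which the liver makes in larger amounts under inflammatory cytokines.

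Levels are in CPM, read counts scaled to a fixed library size. Each comparison was tested over all expressed genes of a tissue with edgeR's quasi-likelihood test, and a gene was called where its Benjamini-Hochberg adjusted p was under 0.05. A kidney library held between 23247565 and 32420329 counts. Liver libraries were deeper for vehicle and 6 mmol/kg, at 88048143 to 125880542 counts, than for the intermediate doses, at 30932385 to 65112568. All 36 genes passed the low-count filter in liver, among 13174 genes tested. In kidney 30 passed among 14216, and F7, F9, F10, F11, F12 and C8b did not.

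In vehicle animals all 36 genes were higher in liver than in kidney. Of the 14949 genes tested in both tissues, 72.9% differed in either direction and 35.8% were higher in liver. The fitted log2 differences were 1.16 or more, with a median of 9.74 (9.61 with F10, which had no read in these kidneys, at its lower bound), against a median of 0.01 over all genes tested. For each of the 36, the lowest of 6 liver libraries lay above the highest of 5 kidney libraries, which held for 3670 of the 14949 genes. In bulk tissue, fewer cells of a type and less RNA per cell cannot be told apart. The 12 hepatocyte markers had a median kidney level of 0.0236% of liver, and 1 of them exceeded 1% (Ttr, at 1.81%). The 36 genes had a median of 0.117%, and 10 exceeded 1%.

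Per length of transcript, Fgg, C3 and Fgb were the highest genes of the set in liver. Mean vehicle levels per kilobase were 5109 CPM for Fgg, 3063 CPM for C3 and 3011 CPM for Fgb. The remaining fibrinogen chain, Fga, was lower at 526.6 CPM per kilobase. Fgg ranged from 4802 to 17070 CPM over the vehicle livers, with a median of 6190 CPM. Fgb ranged from 6552 to 24280 CPM with a median of 7508 CPM, and C3 from 8014 to 25790 CPM with a median of 13470 CPM. The upper ends of these ranges all came from the TCE vehicle group. At the other end, F10, the zymogen of the protease that forms thrombin from prothrombin, averaged 5.31 CPM in liver. F10 gave 3 reads in all 29 kidney libraries together, and 26 of them had none, so its liver level was at least 341-fold higher, against a floor of 3 reads over the vehicle kidneys. F9 (factor IX) was at 187.7 to 313.2 CPM in the vehicle livers. Its kidney level was 0 in 4 of the 5 vehicle libraries and 0.111 CPM in the other, replicate 2 of the TCE vehicle group. F11 (factor XI) was at 174.6 to 267.3 CPM in liver and had reads in 2 of the 5 kidneys, at 0.0831 CPM in the same replicate and 0.0248 CPM in replicate 3. With so few kidney reads, the size of these differences is not given. Genes with several deposited transcripts (C8a, C8g, Cfb, F10, Fga, Kng1, Masp2 and Proc) may be undercounted, since reads that fit several overlapping features had been set aside.

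**Figure D1:**
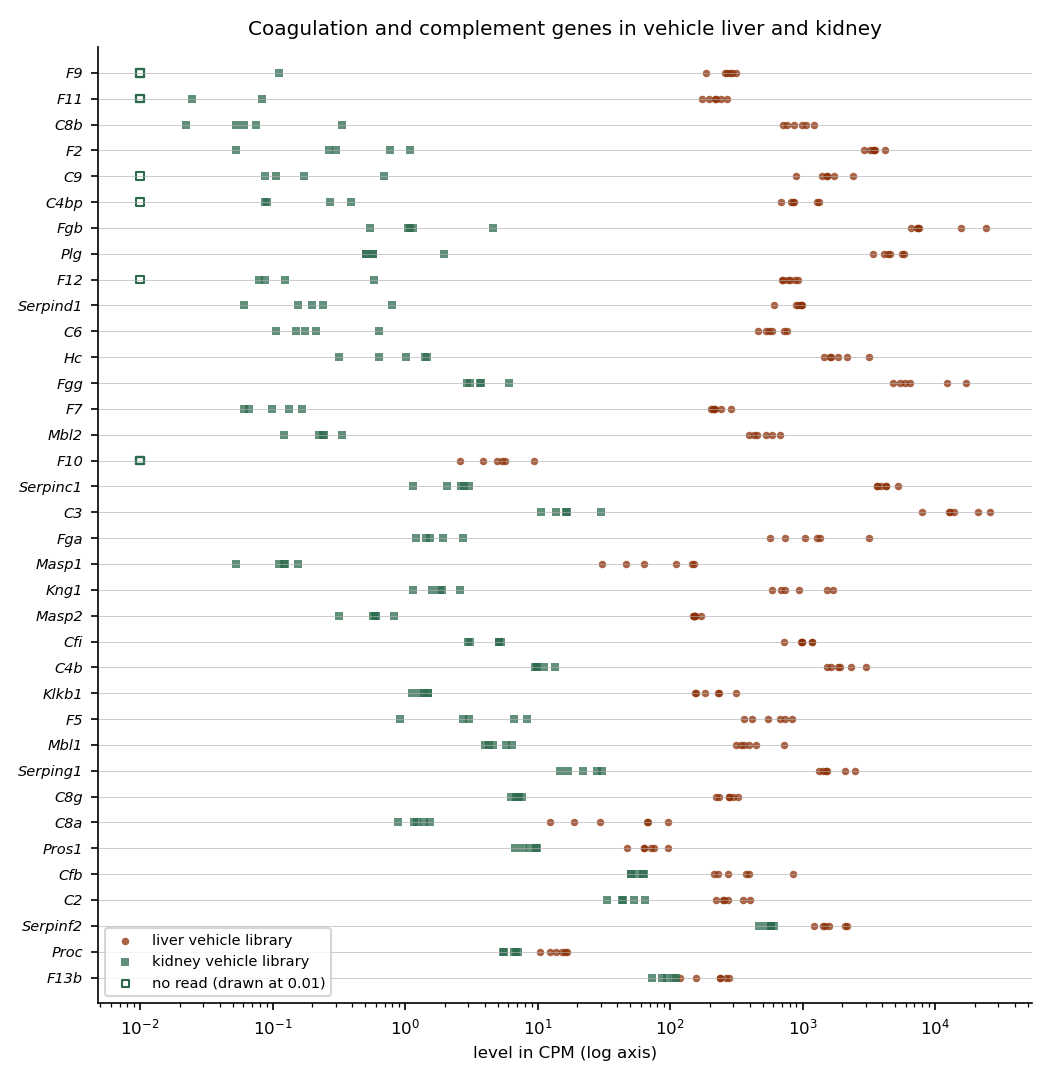
Level of each of the 36 genes in the 6 vehicle livers (circles) and 5 vehicle kidneys (squares), in CPM on a log axis, ordered by fitted tissue difference with the largest at the top. Open squares at 0.01 stand for libraries with no read. F13b, Proc and Serpinf2, at the bottom, lie closest between the tissues, and no gene's kidney libraries reach its liver libraries.

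A minority of the genes reached 5 CPM in kidney. In vehicle kidneys, 11 averaged at least 5 CPM, 9 averaged 1 to 5 CPM and 16 averaged less than 1 CPM. Some hepatocyte markers also passed 5 CPM there, such as Alb and Apoh at 18.2 CPM each. The part of carried-over liver RNA in these kidney levels was not tested. Serpinf2, the main fast inhibitor of plasmin, was the highest at 557 ± 54.4 CPM (SD, n = 5), and its 254 CPM per kilobase exceeded that of every other gene of the set in kidney. Its kidney libraries spanned 470 to 610 CPM with a median of 580 CPM, and its liver libraries spanned 1226 to 2177 CPM with a median of 1541 CPM. The liver excess of Serpinf2 was 1.56 ± 0.13 on the log2 scale (adjusted p = 3.91e-14). F13b, the carrier subunit of the fibrin-crosslinking factor XIII, was second in kidney at 94.8 ± 15.1 CPM (SD, n = 5), which is 44.1% of its liver mean. Kidney F13b ran from 73.5 to 110.8 CPM and liver F13b from 119.1 to 277.6 CPM, so the groups came close without overlapping. Proc, the anticoagulant protein C zymogen, reached 44.8% of the liver mean, but both levels were low. With several deposited transcripts Proc may be undercounted, so its levels and this percentage are uncertain. Its kidney values were 5.49 to 7.08 CPM and its liver values 10.4 to 16.7 CPM.

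Complement C2 and factor B, the paralogous proteases that form the C3 convertases of the classical and alternative routes, were the complement genes of the 36 with the highest kidney levels. Kidney C2 ran from 33.3 to 64.8 CPM with a median of 44.5 CPM, at 16.4% of the liver mean. Kidney Cfb ran from 50.4 to 63.4 CPM with a median of 56.3 CPM, at 14.6% of the liver mean. The liver excess was 2.56 ± 0.10 for C2 and 2.74 ± 0.21 for Cfb on the log2 scale. The genes are neighbours on chromosome 17 (C2 at chr17:34862602-34882100, Cfb at chr17:34856374-34862514, GRCm38.p6). An annotated read-through gene, Gm20547, overlaps exons of both on the same strand, so their counts are uncertain in level. Kidney means of the remaining genes at 5 CPM or more were 22.5 CPM for Serping1 (C1 inhibitor), 17.5 CPM for C3, 10.8 CPM for C4b and 8.61 CPM for Pros1 (protein S). The C3 mean was only 0.111% of its liver mean. C8g, Mbl1 and Proc followed at 7.02, 5.03 and 6.32 CPM.

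For several of the lowest genes, 1 kidney library stood above the others. Replicate 2 of the kidney TCE vehicle group had 57.0 CPM of albumin, against a median of 8.17 CPM over the vehicle kidneys. The same library held 4.60 CPM of Fgb, 6.04 CPM of Fgg, 1.97 CPM of Plg (plasminogen) and 0.582 CPM of F12 (factor XII), the highest vehicle value of each. The part of this library in the low kidney levels was not tested.

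Within the liver, vehicle libraries differed among themselves before any dose is considered. In the TCE vehicle group, replicates 1, 2 and 3 had Fgb at 24280, 6552 and 15720 CPM. Fgg stood at 17070, 5424 and 12290 CPM and Fga at 3187, 564 and 1349 CPM in the same order. All 3 fibrinogen chains were thus high in replicates 1 and 3 and lower in replicate 2. The acute-phase genes Saa1 (serum amyloid A), Hp (haptoglobin) and Orm2 (orosomucoid) followed the same order. Saa1 was at 30130, 147.5 and 16410 CPM, Hp at 50720, 5571 and 23260 CPM, and Orm2 at 2266, 17.7 and 1083 CPM. Summed over 16 acute-phase genes, the level was 180500, 16040 and 95680 CPM in the 3 libraries. The PCE vehicle libraries lay between 16350 and 26500 CPM, with Fgb at 7533, 7256 and 7483 CPM.

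The fibrinogen genes lie side by side on chromosome 3. The stretches upstream of their RefSeq starts (GRCm38.p6) are shown because the chains shared an order across the TCE vehicle livers. The PCE vehicle livers did not show a shared order. Fga was there at 1051, 1284 and 739.7 CPM, and Fgg at 6448, 4802 and 5933 CPM, in replicate order. Capitals mark matches to motifs on either strand. CTGGGA is the core of the interleukin-6 response element of fibrinogen genes, and TTGCNNAA is a C/EBP-type site. The printed stretches are chr3:83007474-83007723 on the plus strand for Fgg, chr3:83025903-83026075 on the plus strand for Fga and chr3:83049864-83050113 on the minus strand for Fgb. In Fga the 77 bases next to the start are left off, and positions are counted back from the RefSeq start.
Fgg: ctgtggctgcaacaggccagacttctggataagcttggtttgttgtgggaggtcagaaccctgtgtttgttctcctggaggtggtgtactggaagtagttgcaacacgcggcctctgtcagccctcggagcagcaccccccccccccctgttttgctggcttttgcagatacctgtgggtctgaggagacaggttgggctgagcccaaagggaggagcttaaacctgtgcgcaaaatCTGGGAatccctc
Fga: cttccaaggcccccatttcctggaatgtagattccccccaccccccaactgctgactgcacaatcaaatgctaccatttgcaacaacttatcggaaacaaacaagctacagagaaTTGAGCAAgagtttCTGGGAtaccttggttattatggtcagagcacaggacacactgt
Fgb: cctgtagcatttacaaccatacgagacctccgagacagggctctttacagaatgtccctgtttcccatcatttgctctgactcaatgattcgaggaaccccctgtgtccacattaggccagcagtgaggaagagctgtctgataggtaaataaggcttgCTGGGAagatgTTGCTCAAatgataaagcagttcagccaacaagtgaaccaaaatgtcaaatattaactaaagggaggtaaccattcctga
CTGGGA was present upstream of all 3 chains, at bases 13 to 8 before the start in Fgg, 121 to 116 in Fga and 91 to 86 in Fgb. It was also present in 27.0% of all 32851 RefSeq windows of 250 bases. TTGCNNAA lay at bases 80 to 73 in Fgb and, on the other strand, at bases 135 to 128 in Fga. It was in 9.56% of the windows. Matches are letters in a window, and binding was not measured.

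Other genes of the set differed between vehicle livers in another order. C8a, the alpha chain of the membrane-attack component C8, was at 18.9, 68.0 and 96.0 CPM in the TCE vehicle livers and 29.6, 12.3 and 66.5 CPM in the PCE vehicle livers. Masp1, a lectin-route protease, was at 46.5, 150.9 and 146.4 CPM and then 63.7, 30.6 and 110.1 CPM. Replicate 1 of the TCE vehicle and replicate 2 of the PCE vehicle were thus among the lowest for both. Those libraries also had the most negative slopes on log2 transcript length in the vehicle livers, -0.146 and -0.118, taken over each gene's log2 deviation from its mean in liver. Their slopes on GC content, per 10 percentage points, were the highest, at 0.247 and 0.21. The part of these slopes in the levels was not tested.

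In liver, TCE at 6 mmol/kg was followed by lower levels of 5 genes of the set, namely C4b, C2, Hc, F11 and Fgb, and by a higher level of none. In the same comparison 1.31% of all genes were called in either direction and 0.767% were lower. The median change of the 36 was -0.33 on the log2 scale against -0.04 over all genes, and 34 of 36 estimates lay below 0. Estimates of 14 were lower at an unadjusted p under 0.05, against 11.72% of all genes in either direction. DESeq2 called 8. The share of all genes called by DESeq2 is not given here or below, so its counts have no background beside them.

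C4b, a complement component that joins C2 in the classical C3 convertase, had vehicle levels of 2342, 1928 and 3035 CPM and levels of 1251, 1395 and 1237 CPM at 6 mmol/kg. The groups did not overlap, and the change was -0.90 ± 0.18 on the log2 scale (edgeR adjusted p = 0.0146). Reads of C4b and the near-identical C4a may be split between them, so the C4b level is uncertain. C2 went from 399, 274 and 352 CPM to 224, 222 and 205 CPM, again without overlap, a change of -0.64 ± 0.12 (adjusted p = 0.0105). Hc went from 2161, 1852 and 3155 CPM to 1304, 1419 and 1459 CPM, a change of -0.77 ± 0.18 (adjusted p = 0.0299).

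Among the clotting factors, F11 had vehicle levels of 267, 223 and 241 CPM and levels of 176, 162 and 140 CPM at 6 mmol/kg. The groups did not overlap, and the change was -0.61 ± 0.15 (edgeR adjusted p = 0.0453). Fgb was at 6770, 8842 and 7070 CPM at 6 mmol/kg, which overlapped the vehicle group at its replicate 2. Its change was -1.01 ± 0.25 (adjusted p = 0.0477). Cfb had the largest estimate, -1.12 ± 0.30, with an adjusted p of 0.0656. Fgg and Fga had estimates of -0.84 ± 0.25 and -0.85 ± 0.36, and C3 of -0.77 ± 0.30, with adjusted p of 0.117, 0.326 and 0.258.

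Among 16 acute-phase genes, 8 were called lower in the same comparison, Saa1 by -6.76 ± 1.56 (edgeR adjusted p = 0.0304), and the acute-phase sum was 17170 to 21540 CPM at 6 mmol/kg. Replicates 1 and 3 of the vehicle group were also left out, an alternative chosen after seeing the data. This leaves 1 vehicle library, assumed to vary like the other groups, so the loss of all calls there says nothing about stability. The estimates were then -0.61 for C4b, -0.37 for C2, -0.44 for Hc, -0.52 for F11 and 0.17 for Fgb. Against the PCE vehicle group, also chosen after seeing the data, none was called, with C4b at -0.36, C2 at -0.16, Hc at -0.16, F11 at -0.29 and Fgb at 0.03. With both vehicle groups pooled none was called. Leaving out 1 library at a time gave 3, 7 and 0 calls without vehicle replicates 1, 2 and 3, and 1, 0 and 0 calls without replicates 1, 2 and 3 of the 6 mmol/kg group. The estimates stayed close when a 6 mmol/kg library was left out, at -0.95 to -0.87 for C4b, -0.81 to -0.73 for Hc, -0.69 to -0.52 for F11 and -1.13 to -0.94 for Fgb. Fitted on the TCE libraries alone, none was called, with C4b at -0.90, C2 at -0.64, Hc at -0.77, F11 at -0.60 and Fgb at -1.01. The part of the acute-phase genes in the changes was not tested.

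**Figure D2:**
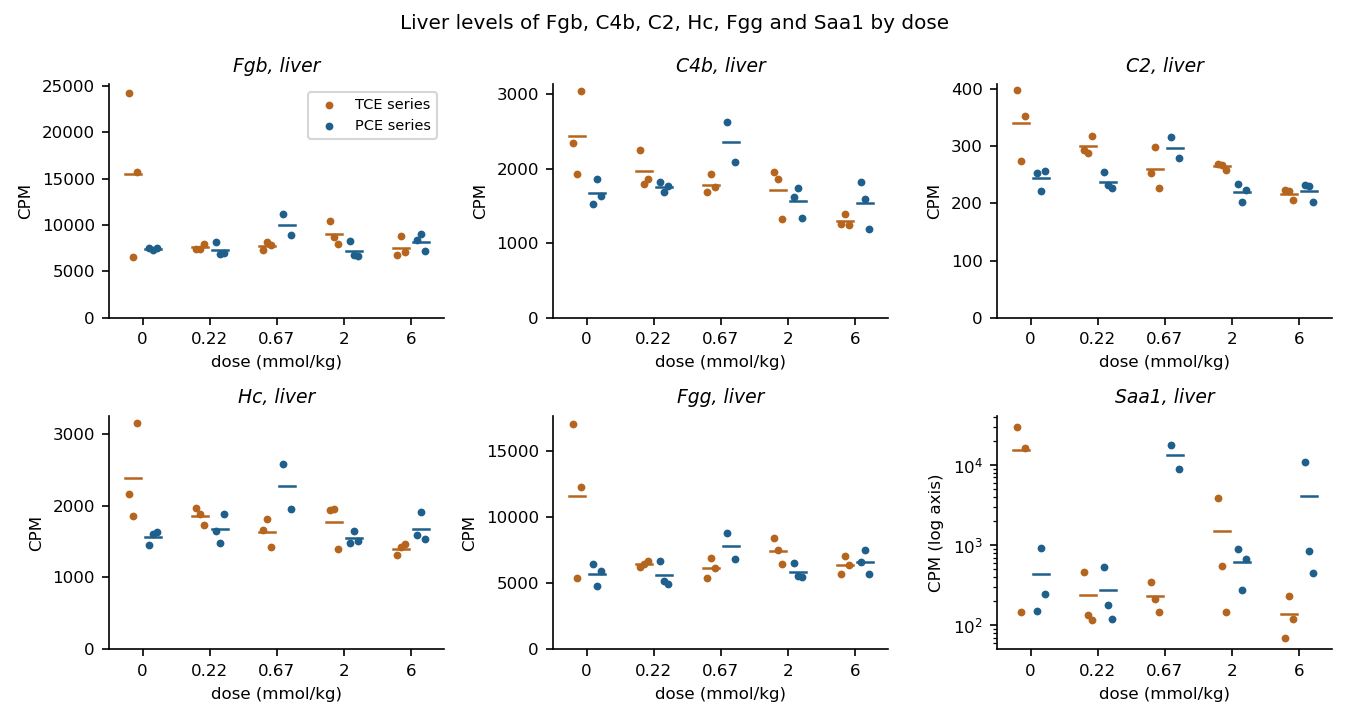
Liver levels in CPM of Fgb, C4b, C2, Hc, Fgg and the acute-phase gene Saa1 (log axis) by dose in mmol/kg, with TCE libraries in orange and PCE libraries in blue. Points are libraries and bars are group means. For Fgb and Fgg, 2 of the 3 TCE vehicle libraries lie above every other library, and the same 2 hold the most Saa1 among vehicle livers.

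Over the 5 TCE dose levels taken as ranks 0 to 4, C2 and C4b declined in liver, and 0.851% of 12452 genes had a called trend. C2 was at 293, 288 and 319 CPM at 0.22 mmol/kg, 253, 299 and 228 CPM at 0.67 mmol/kg and 269.5, 267 and 258.5 CPM at 2 mmol/kg. Its trend was -0.15 ± 0.03 per dose level on the log2 scale (edgeR adjusted p = 0.0258). C4b was at 2249, 1786 and 1862 CPM, then 1680, 1923 and 1751 CPM, then 1957, 1863 and 1324 CPM at the same doses, a trend of -0.20 ± 0.04 (adjusted p = 0.0262). The intermediate groups lay between the vehicle and 6 mmol/kg means for both genes. Without vehicle replicate 3, or without any of the 3 libraries at 6 mmol/kg, neither trend was called, and without replicate 3 of 0.22 mmol/kg 1 was. With vehicle replicates 1 and 3 left out, and so 1 vehicle library remaining, the trends were -0.12 for C2 and -0.17 for C4b and were not called.

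At single TCE doses below 6 mmol/kg, edgeR called none of the 36 in liver. The shares of all genes called were 0.0% at 0.22 mmol/kg and 0.00759% at 0.67 and at 2 mmol/kg. At an unadjusted p under 0.05 there were 5, 12 and 9, all of them lower, against 5.87%, 8.0% and 9.59% of all genes. DESeq2 called 0 at each dose. Without vehicle replicate 2, the library with little acute-phase RNA, 3, 3 and 2 were called. The vehicle groups themselves, PCE against TCE, gave 0 calls in liver, with 0.0% of all genes called. Of the 36, 14 had lower estimates in the PCE vehicle at an unadjusted p under 0.05, against 10.03% of all genes in either direction. DESeq2 called 5, and edgeR called 5 without TCE vehicle replicate 2.

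PCE at 6 mmol/kg was followed by lower liver levels of F11, C8g and F7. Over all genes 5.84% were called and 3.56% were lower, so the count of 3 among 36 is near the background and is not a result about the set. The median change of the 36 was -0.07 against -0.00 over all genes. Lower estimates of 8 and higher estimates of 2 had an unadjusted p under 0.05, which is near the 25.44% of all genes. DESeq2 called 5.

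F11, a protease of the intrinsic clotting route, was at 175, 218 and 195 CPM in the PCE vehicle livers and at 86.1, 128 and 139 CPM at 6 mmol/kg. The groups did not overlap, and the change was -0.72 ± 0.15 on the log2 scale (edgeR adjusted p = 0.0106). C8g, the gamma chain of C8, went from 299, 279 and 281 CPM to 170, 182.5 and 204 CPM, also without overlap, a change of -0.61 ± 0.13 (adjusted p = 0.0139). F7, the zymogen that starts clotting with tissue factor, went from 211, 216 and 217 CPM to 162, 153 and 160 CPM. Its change was -0.42 ± 0.13 (adjusted p = 0.0488).

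Leaving out replicate 1 of the PCE 6 mmol/kg group, which had the lowest F11 and C8g, left 0 calls, with F11 at -0.53 and C8g at -0.54. Slopes of the same deviations on GC content in the libraries at 6 mmol/kg were -0.216, -0.175 and -0.338 per 10 percentage points, against 0.037, 0.21 and 0.0 in the vehicle libraries. With length and GC slopes as covariates, chosen after seeing the data, 0 were called. The estimates were then -0.63 for F11, -0.65 for C8g and -0.45 for F7. Adgre1, a macrophage marker, rose by 1.42 ± 0.41 (edgeR adjusted p = 0.0414), and 1 of 8 macrophage markers was called in all. The macrophage sum was 191 to 351 CPM at 6 mmol/kg and 98.8 to 332 CPM in vehicle, and the part of these changes in the result was not tested.

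Across PCE dose ranks, 4 genes of the set declined in liver and 2 increased, while 11.8% of 13029 genes had a called trend. At an unadjusted p under 0.05 there were 12 of 36, against 29.24% of all genes. These counts are near the background and are not a result about the set. C8g was at 276, 235 and 203 CPM at 0.22 mmol/kg, 206 and 223 CPM at 0.67 mmol/kg and 236, 192 and 194 CPM at 2 mmol/kg. Its trend was -0.14 ± 0.03 per dose level (edgeR adjusted p = 0.0111). F11 was at 192, 204 and 258 CPM, then 167 and 146.5 CPM, then 186, 158 and 162 CPM, a trend of -0.18 ± 0.05 (adjusted p = 0.0262). F7 was at 226, 204 and 176 CPM, then 238 and 202 CPM, then 191, 183 and 161 CPM, a trend of -0.10 ± 0.03 (adjusted p = 0.042). For these 3 the 6 mmol/kg means were the lowest of the 5.

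The other trends were smaller or closer to the threshold. F12, the zymogen that starts contact activation, was at 798, 875 and 776 CPM in vehicle and 734, 640 and 585 CPM at 6 mmol/kg, and its trend was -0.09 ± 0.03 (edgeR adjusted p = 0.0471). F9, the intrinsic-route factor IX, was at 269.7, 188 and 283 CPM in vehicle and 393, 316 and 345 CPM at 6 mmol/kg, a trend of 0.12 ± 0.04 (adjusted p = 0.044). Pros1, the cofactor of activated protein C, was at 71.3, 47.1 and 63.2 CPM in vehicle and 105.7, 83.2 and 77.2 CPM at 6 mmol/kg. Its trend was 0.14 ± 0.04, with an adjusted p that rounds to 0.05 and lay just under it. For F12 and F9 the intermediate values ranged from 575 to 809 CPM and from 234 to 336 CPM, and for Pros1 from 45.4 to 79.6 CPM. Leaving out 1 library at a time gave 1 to 8 called trends among the 36, the fewest without vehicle replicate 2 or replicate 3 of 6 mmol/kg. With the slopes as covariates none was called. The trends were then -0.17 for C8g, -0.20 for F11 and -0.10 for F7, about as large as before, and -0.03 for F12, 0.02 for F9 and 0.07 for Pros1.

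**Figure D3:**
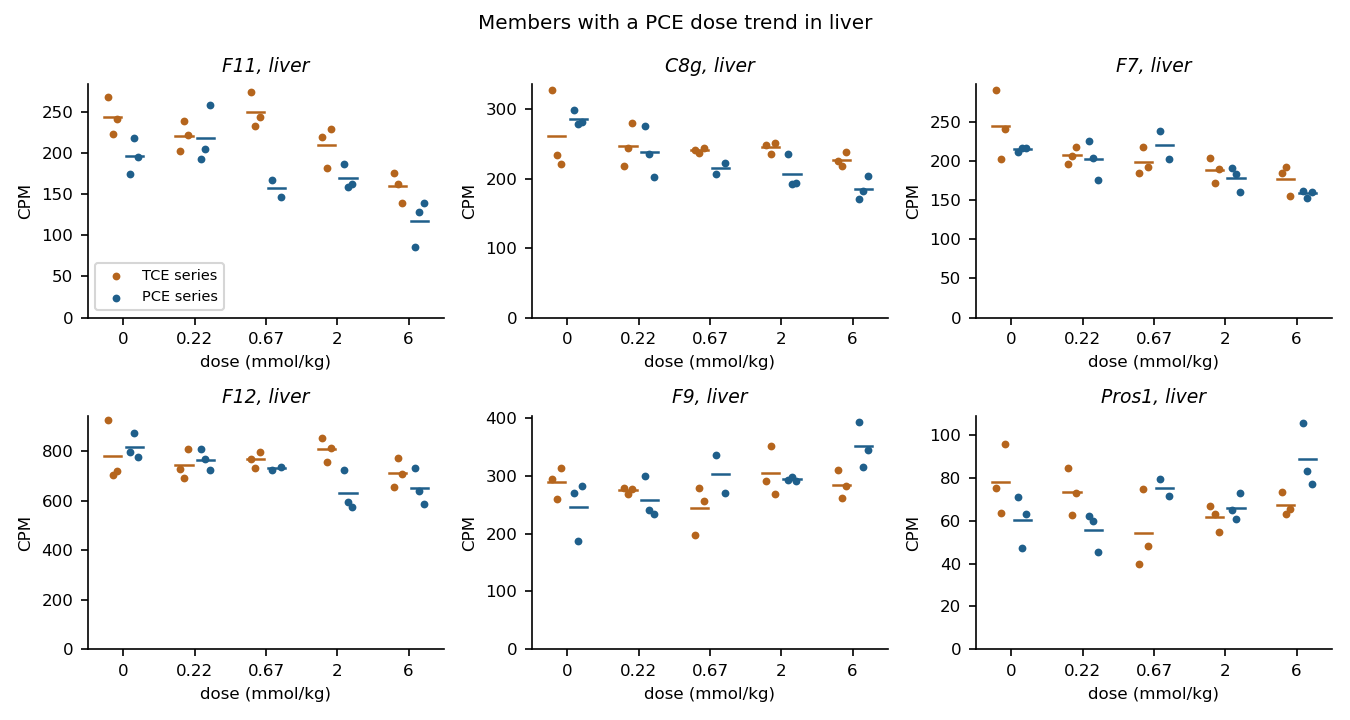
Liver levels in CPM of F11, C8g, F7, F12, F9 and Pros1 by dose in mmol/kg, with TCE libraries in orange and PCE libraries in blue. Points are libraries and bars are group means. At PCE 6 mmol/kg, F11 (86.1 to 139 CPM) and C8g (170 to 204 CPM) lie below their 3 vehicle libraries.

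At single PCE doses below 6 mmol/kg, edgeR called none of the 36 in liver. The shares of all genes called were 0.00759% at 0.22 and at 0.67 mmol/kg and 0.182% at 2 mmol/kg. There were 0, 3 and 3 at an unadjusted p under 0.05, against 4.4%, 7.57% and 11.61% of all genes. DESeq2 called 0 at each dose. At 0.67 mmol/kg both libraries had high acute-phase sums, 54770 and 78060 CPM, and Fgb stood at 11170 and 8863 CPM. Set against the TCE vehicle in place of their own, an alternative chosen after seeing the data, 4 were called at 0.22 mmol/kg and 3 at 2 mmol/kg.

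TCE and PCE are both chlorinated ethenes, and PCE carries chlorine at the position where TCE has hydrogen. Their responses were compared at each of 4 matched doses in each tissue, 8 differences in all, each adjusted over all genes of the tissue. In liver none of the 36 differed at any dose. The shares of all genes called were 0.0%, 0.0228%, 0.0% and 0.0% at 0.22, 0.67, 2 and 6 mmol/kg. At an unadjusted p under 0.05 there were 3, 10, 2 and 11 genes of the set, against 4.79%, 6.59%, 6.94% and 8.87% of all genes. DESeq2 called 0, 1, 0 and 0. Without TCE vehicle replicate 2, edgeR called 1 at 0.22, 4 at 0.67 and 2 at 6 mmol/kg.

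At 6 mmol/kg the largest liver difference, PCE response minus TCE response, was for Fgb at 1.17 on the log2 scale (95% interval 0.43 to 1.90, edgeR adjusted p = 0.358). Hc differed by 0.89 (0.37 to 1.41, adjusted p = 0.305) and C4b by 0.80 (0.27 to 1.33, adjusted p = 0.393). Each of these intervals excludes 0 before adjustment, and each difference includes the uneven TCE vehicle libraries. F11, called lower after both chemicals, differed by -0.11 (-0.55 to 0.33), and F7 by 0.03 (-0.34 to 0.40). The F11 call after TCE was kept in only 1 of 15 alternatives, 1 of which leaves 1 vehicle library. After PCE, the F11 call was kept in 12 of 14 alternatives and the F7 call in 3 of 14. C8g, called after PCE, differed by -0.42 (-0.81 to -0.03, adjusted p = 0.546). The intervals of F11 and F7 include 0 and also differences of about the size of the F7 change, so they do not show that the chemicals act alike on these genes.

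**Figure D4:**
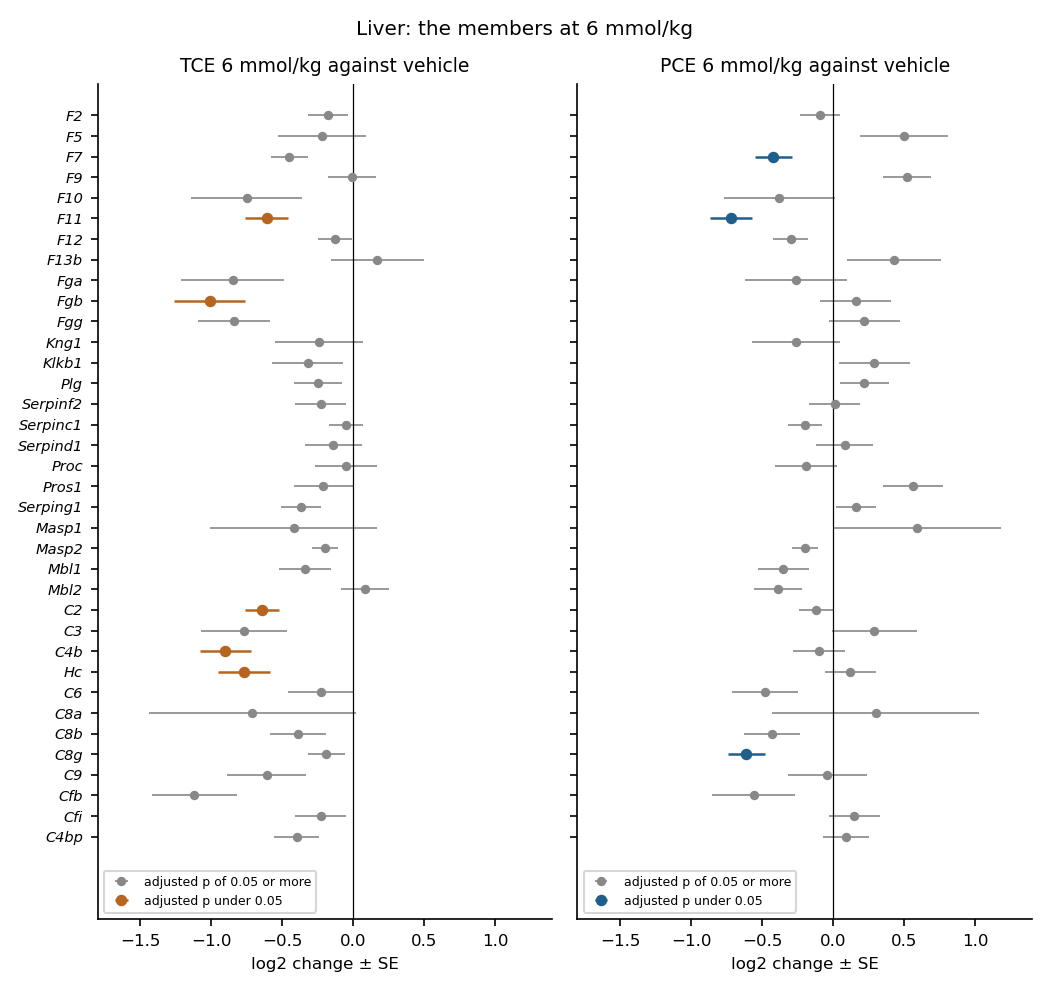
Change of each of the 36 genes in liver at 6 mmol/kg against its own vehicle group, TCE on the left and PCE on the right, as log2 change with bars of 1 SE. Coloured points had an adjusted p under 0.05, namely 5 after TCE and 3 after PCE. After TCE 34 of 36 estimates lie below 0, and after PCE 19 of 36 do.

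In kidney, Serpinf2 was called lower at 6 mmol/kg of either chemical. After PCE at 6 mmol/kg its level was 207, 292 and 245 CPM, against 543 and 580 CPM in the 2 vehicle libraries. The groups did not overlap, and the change was -1.17 ± 0.17 on the log2 scale (edgeR adjusted p = 0.000354). Serpinf2 was the 1 gene of the set called in that comparison, where 3.83% of all genes were called and 2.06% were lower. The count of 1 among 30 tested is near the background and is not a result about the set. The call was made in all 13 alternatives run, with changes of -1.31 to -1.06. An unadjusted p under 0.05 was found for 9 of the 30 tested, against 16.39% of all genes. DESeq2 called 4, of which 2 were higher.

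After TCE at 6 mmol/kg Serpinf2 was at 287, 298 and 410 CPM, against 610, 582 and 470 CPM in the TCE vehicle kidneys. The groups did not overlap, and the change was -0.74 ± 0.15 (edgeR adjusted p = 0.0449). It was the 1 gene of the set called, where 0.176% of all genes were called and 0.113% were lower. Without adjustment 9 of the 30 tested had p under 0.05, 8 of them lower and 1 higher, against 10.12% of all genes. DESeq2 called 2. The vehicle group includes replicate 2, the library with 57.0 CPM of albumin, and its part in these estimates was not tested. The adjusted p of Serpinf2 rose to 0.302 and 0.151 without vehicle replicates 1 and 2, and to 0.19 and 0.286 without replicates 1 and 2 of the 6 mmol/kg group, with changes of -0.70 to -0.64.

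At intermediate doses Serpinf2 was not called in kidney, and its libraries lay closer to vehicle. After PCE it was at 492, 419 and 571 CPM at 0.22 mmol/kg, 584, 633 and 494 CPM at 0.67 mmol/kg and 423, 322 and 322 CPM at 2 mmol/kg. After TCE it was at 484, 574 and 589 CPM, then 543, 442 and 420 CPM, then 518, 443 and 474 CPM. All 3 PCE libraries at 2 mmol/kg lay below both vehicle libraries, while the TCE groups overlapped their vehicle at each of these doses. The PCE trend of Serpinf2 was -0.30 ± 0.06 per dose level (edgeR adjusted p = 0.0164), and 0.0501 without replicate 3 of 6 mmol/kg. Its TCE trend was -0.16 (adjusted p = 0.124).

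The PCE and TCE responses of Serpinf2 in kidney at 6 mmol/kg differed by -0.43 (95% interval -0.90 to 0.05, edgeR adjusted p = 0.707). The interval includes 0 and also a PCE response larger than the TCE response by up to 0.90. The 8 proximal tubule markers, from the nephron segment that makes up most of the renal cortex, summed to 37030 to 37350 CPM at PCE 6 mmol/kg against 50060 to 51150 CPM in vehicle. At TCE 6 mmol/kg they summed to 41670 to 45740 CPM against 47700 to 56420 CPM. The median change of the 8 was -0.27 after PCE and -0.01 after TCE. Kap, an androgen-regulated kidney protein, was the 1 marker called after PCE, at -0.52, and none was called after TCE, where Kap was at -0.44. Estimates above 0 were those of Slc5a12 and Cubn after PCE (0.57 and 0.01) and of Slc5a12, Slc5a2, Slc34a1 and Miox after TCE (0.76, 0.43, 0.05 and 0.02). None of the 8 was at 0 in any of these groups, and the part of the tubule sum in the Serpinf2 change was not tested.

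**Figure D5:**
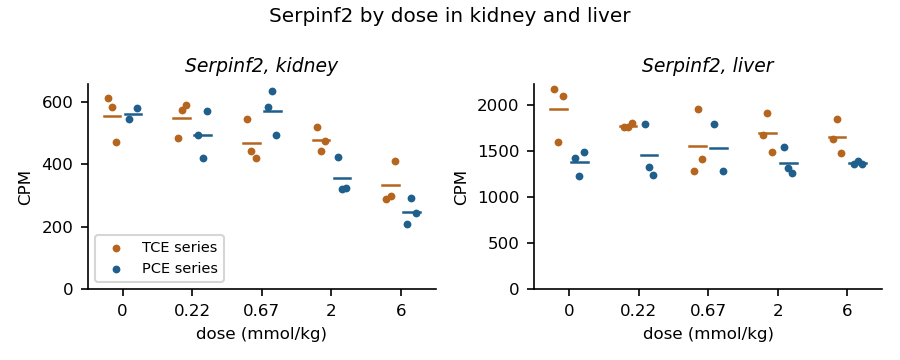
Level of Serpinf2 in CPM by dose in mmol/kg, in kidney on the left and liver on the right, with TCE libraries in orange and PCE libraries in blue. Points are libraries and bars are group means. In kidney the 6 mmol/kg libraries lie at 207 to 410 CPM, below all vehicle libraries of the same chemical, whereas in liver the PCE 6 mmol/kg libraries lie within their vehicle range.

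The stretch upstream of Serpinf2 is shown because it was the gene of the set with both a kidney level and a kidney change. It spans chr11:75439592-75439751 on the minus strand of GRCm38.p6 and comes from RefSeq, with 90 bases next to the RefSeq start left off.
Serpinf2: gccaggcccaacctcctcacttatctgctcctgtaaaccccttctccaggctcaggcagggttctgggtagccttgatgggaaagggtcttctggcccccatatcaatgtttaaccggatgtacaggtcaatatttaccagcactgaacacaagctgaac
Neither of the motifs searched in the fibrinogen stretches had its letters in the Serpinf2 window.

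The other genes of the set gave few kidney results. Across PCE dose ranks, Serpinc1 declined by -0.20 ± 0.05 per dose level (edgeR adjusted p = 0.0264). It was at 2.62 and 2.78 CPM in vehicle and at 1.30, 1.05 and 1.84 CPM at 6 mmol/kg. Exons of Zbtb37 overlap those of Serpinc1 on the opposite strand, and the strand setting of the read counts is not given. The kidney level of Serpinc1 is therefore uncertain. Serpinc1 and Serpinf2 were the 2 called trends among 27 tested, where 3.37% of 13818 genes were called. That count is near the background and is not a result about the set. The Serpinc1 call was lost without either vehicle library or without replicate 1 or 2 of 6 mmol/kg (adjusted p of 0.0582 to 0.0939). The TCE trend in kidney gave 0 calls, with 0.0% of 13702 genes called, and DESeq2 gave 1. Of 29 tested, 8 had an unadjusted p under 0.05, 7 of them lower and 1 higher, against 9.07% of all genes. The TCE vehicle group of this trend includes replicate 2, which had high albumin, and its part was not tested. After PCE at 6 mmol/kg, Fga had an estimate of 1.41 ± 0.46 and Fgg of 1.17 ± 0.41, with adjusted p of 0.09 and 0.121. Replicate 1 of that group carried the highest values, 6.65 CPM of Fga and 12.1 CPM of Fgg, against at most 2.21 and 4.44 CPM in replicates 2 and 3.

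At TCE doses of 0.22, 0.67 and 2 mmol/kg edgeR called none of the set in kidney, with 0.0%, 0.00703% and 0.0% of all genes called. At an unadjusted p under 0.05 there were 5, 8 and 2 of 30 tested, against 5.12%, 12.39% and 4.26% of all genes. DESeq2 called 0, 1 and 0. Without replicate 1 of the 0.67 mmol/kg group edgeR called 1. Replicate 3 of that group also carried adrenal markers, summing to 2836 CPM where the other kidney libraries had at most 9.89 CPM, and their part was not tested. At the same PCE doses edgeR called none, with 0.0%, 0.0% and 0.0141% of all genes called, and DESeq2 called 0. An unadjusted p under 0.05 was found for 5, 5 and 2, against 6.2%, 8.25% and 6.11% of all genes.

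Between the chemicals, edgeR called none of the set in kidney at 0.22, 0.67, 2 and 6 mmol/kg, with 0.0%, 0.0%, 0.0% and 0.0211% of all genes called. There were 6, 7, 1 and 3 of 30 tested at an unadjusted p under 0.05, against 4.48%, 16.03%, 4.21% and 7.64% of all genes. DESeq2 called 0, 1, 0 and 1. At 6 mmol/kg Fga differed by 2.25 (95% interval 0.98 to 3.53, edgeR adjusted p = 0.288), with the replicate named above in the PCE group. The kidney vehicle groups gave 0 calls against each other, with 0.0% of all genes called, and DESeq2 called 0. An unadjusted p under 0.05 was found for 8 of 30 tested, against 8.15% of all genes.

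The responses at 6 mmol/kg were also set against each other between the tissues. For PCE, Serpinf2 was the 1 gene of the set whose response differed, by 1.17 ± 0.25 (liver minus kidney, edgeR adjusted p = 0.0113), and 0.709% of all genes were called. In liver its PCE change was 0.01 ± 0.18, and the libraries lay at 1363, 1398 and 1361 CPM against 1420, 1226 and 1488 CPM in vehicle. Without adjustment 5 of the set had p under 0.05, against 13.62% of all genes, and DESeq2 called 1. The difference was not called without kidney vehicle replicate 2 (1.14, adjusted p = 0.115) or without replicate 1 of kidney 6 mmol/kg (1.06, adjusted p = 0.0565). For TCE, the Serpinf2 difference was 0.50 ± 0.24 (adjusted p = 0.541).

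For TCE, C2 was the 1 gene called, by -0.91 ± 0.18 (liver minus kidney, edgeR adjusted p = 0.00774), where 0.328% of all genes were called. The liver change was -0.64, as above. Kidney C2 was at 33.3, 43.4 and 44.5 CPM in vehicle and at 47.1, 46.2 and 51.8 CPM at 6 mmol/kg, and its estimate there did not pass the test. Without adjustment 9 of the set had p under 0.05, against 8.86% of all genes, and DESeq2 called 1. With the vehicle groups of both chemicals pooled the C2 difference was -0.45 (adjusted p = 0.538), and without kidney vehicle replicate 1 it was -0.79 (adjusted p = 0.0634). It was -0.62 with replicates 1 and 3 of the liver TCE vehicle group left out, where 1 vehicle liver remains and the adjusted p of 0.405 says little. Without liver vehicle replicate 2, 2 genes of the set were called.

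Beyond the 36, further genes of both pathways were examined from lists of 34 coagulation and fibrinolysis genes and 36 complement genes. Between vehicle tissues, 35.8% of all 14949 genes tested were higher in liver and 72.9% differed in either direction, with a median of 0.01. Of 32 tested coagulation genes 19 were higher in liver, 10 lower and 3 not called, with a median of 1.35 on the log2 scale. The 10 lower genes are no excess over the background and are not a result about the list. Fgl1, a fibrinogen-like hepatokine, and Serpina10, the protein Z-dependent protease inhibitor, had the largest liver excess at 11.00 and 10.78. The plasminogen activators Plau and Plat had the largest kidney excess, at -8.49 and -5.72. Of 34 tested complement genes 28 were higher in liver, 4 lower and 2 not called, with a median of 3.99. Vtn (vitronectin) led in liver at 14.01. Cfd (factor D) and Csmd1, a membrane-bound complement regulator, were lower in liver by -8.73 ± 1.81 and -6.11 ± 0.59. Both were near the floor, so the size of these differences is uncertain. Vehicle kidneys held Cfd at 0.0529 to 5.48 CPM and Csmd1 at 0.318 to 1.09 CPM. Vehicle livers held Cfd at 0.0 CPM and Csmd1 at no more than 0.0168 CPM.

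At 6 mmol/kg the calls among these genes are given beside the share of all genes called, which was 1.31% in liver after TCE, 5.84% in liver after PCE and 3.83% in kidney after PCE. In liver after TCE, Serpina10 (-1.15 ± 0.27, edgeR adjusted p = 0.033) and Habp2, a protease that activates factor VII (-0.55 ± 0.13, adjusted p = 0.0312), were lower among 31 tested, and 0 of 32 complement genes were called. Serpina10 was at 259.6, 87.5 and 227.3 CPM in the TCE vehicle livers and at 81.4, 83.0 and 89.7 CPM at 6 mmol/kg, so vehicle replicate 2 lay within the treated range. The PCE vehicle livers, at 72.2 to 95.1 CPM, also overlapped that range, and the high libraries were the 2 with high acute-phase RNA. Habp2 was at 413, 346 and 366 CPM in vehicle and at 246, 261 and 259 CPM at 6 mmol/kg, without overlap, and at 273 to 299 CPM in the PCE vehicle livers. In liver after PCE, Hgfac, a protease related to factor XII, was lower (-0.50 ± 0.14, adjusted p = 0.039), the 1 call among 31. Of 32 complement genes after PCE, 2 rose and 1 fell. Colec10, a collectin of the lectin route, rose by 0.98 ± 0.24 (adjusted p = 0.0229), and C4a fell by 1.12 on the log2 scale (adjusted p = 0.0202), with the same read-sharing limit as C4b. In kidney after PCE, Proz (protein Z, -1.03 ± 0.22, adjusted p = 0.00844) and Ggcx, the vitamin K-dependent carboxylase of clotting factors (-0.33 ± 0.08, adjusted p = 0.0135), were lower among 30. C1rl was lower among 29 complement genes (-0.33 ± 0.09, adjusted p = 0.0438). After TCE in kidney 0 of 30 and 0 of 29 were called by edgeR.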

How the data were processed

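Total RNA of liver and kidney was sequenced after library preparation with a TruSeq Total RNA kit, per the labels' protocols. HTSeq, TopHat2 2.0.10, CASAVA 1.8.2 and the build mm10 are named in the submitters' processing notes, and the strand setting is not given in the sources used here. Unnormalized counts of reads for each RefSeq transcript were deposited by the authors, per the file headers. The deposited columns for 0.22 and 0.67 mmol/kg were read under the unit of expected counts because a decimal dose stands above the values, all of which were whole. Reads marked ambiguous (19.7 to 22.5% of a library) or without a feature (14.3 to 27.5%) were left out.

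The 33392 transcripts were summed to 24122 genes, with 32988 transcripts matched to RefSeq GRCm38.p6 names. CPM were computed from TMM library sizes over all 58 libraries, whose scale differs from that of the tissue fits by an SD of 2.3% in liver and 0.44% in kidney. In each of 56 replicate pairs the counts differed beyond sampling noise (lowest chi-square over degrees of freedom 14.57). Tests used edgeR 4.0.16 in R 4.3.3 (TMM, filterByExpr, robust glmQLFit, glmQLFTest), with 1 fit per tissue over all its groups, trends over dose ranks within a chemical, and 1 fit of both tissues. Standard errors were computed as the absolute log2 change over the square root of F. The fitted biological variation between replicates (BCV) was 0.257 for liver libraries and 0.156 for kidney libraries. A fit of 1 dose group against vehicle was tested on simulated liver counts. These had less variation between replicates than the fitted BCV, and trends and response differences were not simulated. DESeq2 1.42.0 and other settings served as alternatives. Same-numbered libraries deviated together in few pairs of groups, so no pairing was assumed, though so few libraries a group cannot exclude it.

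The genes and lists were chosen with earlier results of these data known. Values in every library are given for genes called in a comparison. Other list genes are named by smallest adjusted p, or by largest fold between tissues, and genes outside these rules were chosen after their values were seen. Some genes that were examined are not reported here.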

Additional observations from a re-analysis of the deposited data

Results flagged for a closer look

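In the 6 vehicle livers, 1 library stood apart from the rest for 5 genes by Dixon's test. Fga was high at 3187 CPM, Cfb at 846.7 CPM and Mbl1 at 730.9 CPM, each in replicate 1 of the TCE vehicle group. Masp2 was high at 169.9 CPM and Serpind1 low at 612.4 CPM, both in replicate 2 of the PCE vehicle group.

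In the 5 vehicle kidneys, 1 library stood apart for 9 genes that are scarce in kidney, each time replicate 2 of the TCE vehicle group. The values were 4.596 CPM for Fgb, 6.036 CPM for Fgg, 1.966 CPM for Plg, 0.803 CPM for Serpind1 and 0.692 CPM for C9. They were 0.637 CPM for C6, 0.582 CPM for F12, 0.332 CPM for C8b and 0.111 CPM for F9. Chance flags about 1 in 20 groups.

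The response at 6 mmol/kg differed between liver and kidney for C2 after TCE, by -0.91 on the log2 scale, and for Serpinf2 after PCE, by 1.17, in edgeR's test of the difference itself.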

How the results depend on the processing

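Over 33 comparisons, 524 alternatives were run. The count of called genes of the set stayed within 1.5 times in 435 and moved in 89, and it never moved in 10 comparisons. Called single genes kept their direction except Fgb in liver at TCE 6 mmol/kg, at 0.03 against the other vehicle and 0.17 without TCE vehicle replicates 1 and 3. Leaving out TCE vehicle replicates 1 and 3 leaves 1 vehicle library, so calls lost there say nothing about stability. Counts of 6 of the 36 genes were too low in kidney for a test within that tissue. The cause of the changes below was not tested.

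In liver at TCE 6 mmol/kg, 5 calls became 3 with DESeq2's size factors in edgeR, 8 with DESeq2, 3 without a count filter, 0 with the libraries of the chemical alone, 0 with pooled vehicle groups, 2 with slope covariates, 0 with the other vehicle, 0 without vehicle replicates 1 and 3, and 0 to 7 when 1 library was left out. The TCE trend went from 2 to 5 with DESeq2, 0 with pooled vehicles, 0 with covariates, 0 without vehicle replicates 1 and 3, and 0 to 2 when 1 library was left out. At TCE 0.22, 0.67 and 2 mmol/kg leaving out 1 library gave 0 to 3, 0 to 3 and 0 to 2.

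At liver PCE 6 mmol/kg, 3 became 5 with DESeq2, 7 with pooled vehicles, 0 with covariates, 11 with the other vehicle, and 0 to 4 when 1 library was left out. The other vehicle gave 4 at 0.22 and 3 at 2 mmol/kg. The PCE trend went from 6 to 2 without a filter, 3 with pooled vehicles, 0 with covariates, and 1 to 8 when 1 library was left out. For the liver response differences DESeq2 gave 1 at 0.67 mmol/kg, and leaving out 1 library gave 0 to 1, 0 to 4 and 0 to 2 at 0.22, 0.67 and 6 mmol/kg. The liver vehicle comparison gave 5 with DESeq2 and 0 to 5 when 1 library was left out.

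In kidney at TCE 6 mmol/kg, 1 became 2 with DESeq2, 0 without a filter, 0 with the chemical alone, 0 with covariates, 0 with the other vehicle and 0 to 1 when 1 library was left out. At PCE 6 mmol/kg it became 4 with DESeq2, 2 with the chemical alone, 2 with pooled vehicles, 4 with covariates, 5 with the other vehicle and 1 to 3 when 1 library was left out. TCE 0.67 mmol/kg gave 1 with DESeq2 and 0 to 1 when 1 library was left out, and PCE 2 mmol/kg 1 with pooled vehicles. The response differences gave 1 with DESeq2 and 1 with pooled vehicles at 0.67 mmol/kg and 1 with DESeq2 at 6 mmol/kg. The TCE trend gave 1 with DESeq2, and the PCE trend 4 with pooled vehicles and 1 to 2 when 1 library was left out. Between the tissues, the TCE response gave 0 with pooled vehicles, 0 without liver vehicle replicates 1 and 3, and 0 to 2 when 1 library was left out. The PCE response gave 4 with pooled vehicles, 0 with covariates and 0 to 1 when 1 library was left out.

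Same-numbered libraries had every correlation over 0.1 in 1 of 16 dose and vehicle pairs of groups. The same held for 10 of 90 pairs of groups in all, and the range was -0.8 to 0.69. With 2 or 3 libraries a group, this check cannot exclude shared animals or batches. With the replicate number as a block, 29 of 33 comparisons kept their count. The liver TCE 6 mmol/kg count went from 5 to 3, the liver TCE trend from 2 to 0 and the kidney TCE 6 mmol/kg count from 1 to 0, and liver PCE 6 mmol/kg from 3 to 2.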
